A study of Homo sapiens with 4 samples.

Results

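The genes described here are 40 genes of homologous recombination, the Fanconi pathway, mismatch repair and the damage signalling and excision steps beside them, taken by symbol from a table of 64252 gene IDs. Each of the 40 symbols matched 1 Ensembl ID, and all 40 passed the filter on low counts that left 19897 IDs for testing. RNA-seq libraries came from Jurkat, an established human line from an acute lymphoblastic leukemia of T cells (T-ALL), that carried a short hairpin RNA against SOX4 (sh-SOX4, 2 libraries) or a scrambled hairpin (sh-Scb, 2 libraries). SOX4 is a SOXC transcription factor, and the comparison asks which transcripts differ when it is reduced. Both groups are the same line with an introduced hairpin, and whether each library is a culture of its own is not stated in the sources used here. The p-values therefore measure the spread between these samples only, and that spread may be technical. The time after the hairpin was introduced and its target site are not stated in the labels. As whole populations were sequenced, a change in the share of cells expressing a gene and a change in RNA per cell cannot be told apart.

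Homologous recombination repairs broken chromosomes from the sister copy: damage kinases mark the break, the MRE11-RAD50-NBN complex and its helpers cut back the ends, and BRCA1, PALB2, BRCA2 and partner proteins prepare the strand for pairing with its copy. The Fanconi core complex places ubiquitin on FANCD2 and FANCI at DNA crosslinks and hands them to the same machinery, while MutS and MutL proteins correct replication mismatches. Many of these genes are transcribed mainly in S and G2 phase. Jurkat is known as a mismatch repair deficient line without working p53.

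Across the 40 genes the sh-SOX4 libraries differed from the sh-Scb libraries in both directions, by modest amounts. In sh-SOX4 the recombination genes RAD51C and PALB2, the break-binding genes NBN and RAD50, and the mismatch repair genes PMS2 and MSH3 were higher. The Fanconi ligase gene FANCL, the recombination genes BARD1, RAD54L and BRIP1, the nuclease gene MRE11 and the clamp gene FANCI were lower. At an adjusted p under 0.05 (edgeR's quasi-likelihood F-test, Benjamini-Hochberg adjusted over all 19897 IDs), 12 members were higher and 15 lower in sh-SOX4, and 13 were not called. With scaling to library totals in place of TMM, which put the median of all tested IDs at -0.11 (log2), the counts were 8 higher and 17 lower, and the share of higher calls among all IDs was 40.8% in place of 52.5%. The background is high: 44.1% of all tested IDs were called, 23.2% higher and 20.9% lower. Among the 9802 IDs at least as abundant as the least abundant member, at a mean log2 CPM of 3.745 or more, 63.9% were called, 37.8% higher and 26.1% lower, and the members' 67.5% lies close to that. Their median log2 fold change was -0.03, against -0.01 for all tested IDs. No called member changed by 1 or more on the log2 scale, and the median size of the change was 0.23, against 0.38 over all tested IDs. The CPM values of the groups did not overlap for 37 of the 40 members, beside 72.9% of all tested IDs. That share was not computed for the IDs at least as abundant as the members, among which calls were more frequent.

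**Figure D1:**
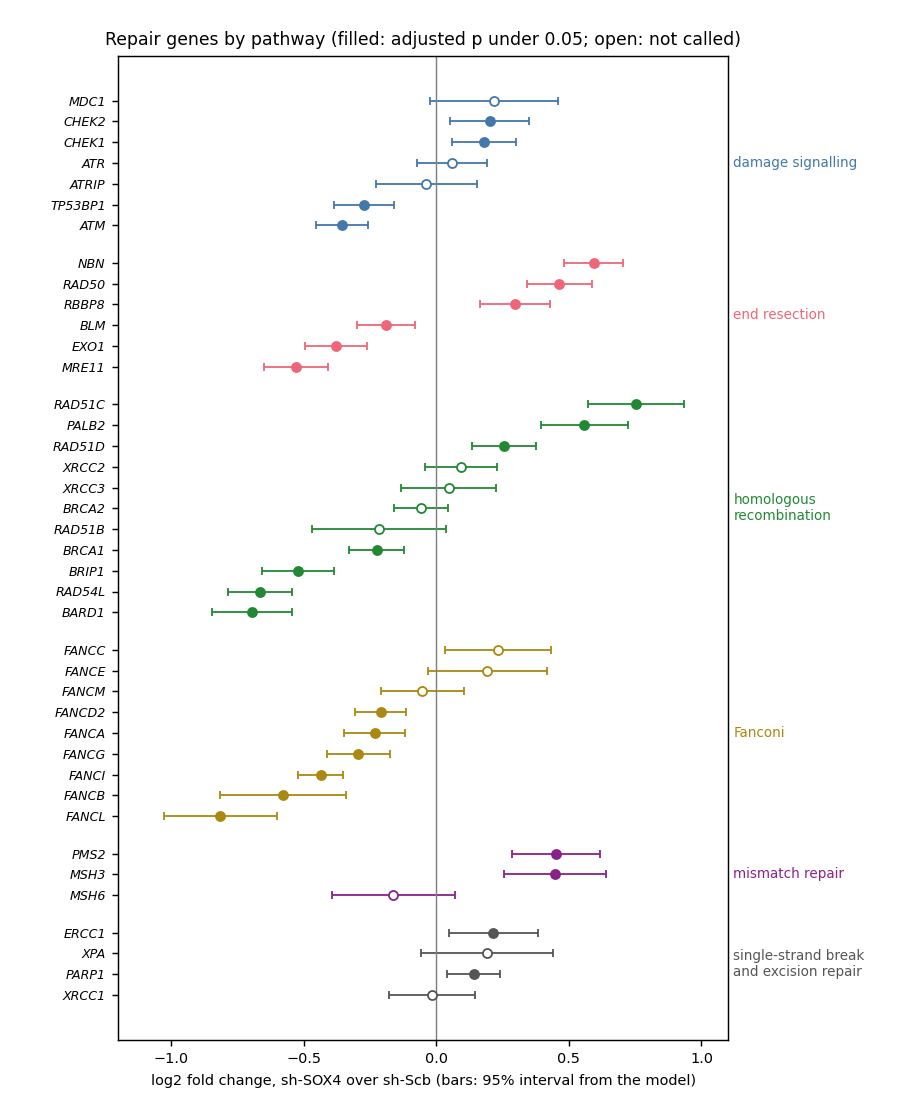
Log2 fold changes (sh-SOX4 over sh-Scb, horizontal axis) of the 40 members, grouped by pathway and ordered within it; bars are 95% intervals from the model and open circles were not called. End resection and homologous recombination genes lie on both sides of 0, whereas the 6 called Fanconi genes all lie left of it.

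The libraries summed to between 29093287 and 36636219 counts, and single members had between 372 and 19828 counts in a library. SOX4 itself, the targeted gene, had 190.7 and 198.7 CPM in sh-SOX4, against 271 and 277 CPM in sh-Scb, leaving 71.1% of the control level. All 7 T lineage markers were measured in every library, and they summed to 1738 and 1765 CPM in sh-SOX4 and to 1350 and 1357 CPM in sh-Scb. Of markers of other cell types, LYZ and COL1A2 had no counts, and the 4 myeloid markers together stayed at or below 1.08 CPM. The 4 B lineage markers summed to 14.6 and 14.1 CPM in sh-SOX4 and 68.4 and 66.5 CPM in sh-Scb, nearly all of it CD79A. The 3 fibroblast markers summed to 17.3 and 17.5 CPM in sh-SOX4 and 24.4 and 25.8 CPM in sh-Scb, nearly all of it COL1A1, and the 3 epithelial markers to under 1 CPM in each library. Their part in the results below was not tested.

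Per exonic kilobase (RPKM), the members spanned a wide range. The length counts every base annotated as exonic in any transcript of a gene, used in these cells or not. The order of genes on this scale therefore depends on the annotation as well. FANCC and MSH6, listed among the lowest below, have 12809 and 10993 such bases. PARP1, the enzyme that marks strand breaks with poly(ADP-ribose), and FANCI stood above all other members in every library, with 61.0 and 49.9 RPKM in sh-SOX4 and 55.3 and 67.6 RPKM in sh-Scb. FANCI was therefore above PARP1 in sh-Scb and below it in sh-SOX4, in both libraries of each group. RAD54L followed in sh-Scb at 31.9 RPKM, but in sh-SOX4 CHEK1 (21.2 RPKM), EXO1, RAD54L and FANCD2 (19.9 RPKM) lay close together. The lowest levels were those of MDC1 (1.96 RPKM in sh-SOX4, 1.68 in sh-Scb), RAD51B (1.65 in sh-SOX4, 1.92 in sh-Scb), FANCC (2.11 in sh-SOX4, 1.80 in sh-Scb) and MSH6 (2.07 in sh-SOX4, 2.31 in sh-Scb).

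Fragments of the upstream regions are shown first for the 5 called members whose start region holds an E2F word, because E2F factors are known to drive S phase genes and the holders moved both ways. RefSeq windows on GRCh38.p14, from 250 bases before to 50 after the start, were found for 38 of the 40 members and for 35116 genes in all. A member's window stands at a single annotated start, which need not be the start used in these cells. The windows of FANCC and RBBP8 lie inside their genes as annotated by GENCODE, and that of BRCA1 lies outside its gene. All windows were searched on both strands for TTTGGCGC, TTTCCCGC, TTTCGCGC and TTTGCCGC. Of the member windows 8 held such a word (21.1%), against 3.31% of all windows, which were not matched to the members in base content or expression. The word was in 2 of 11 higher (18.2%), 3 of 14 lower (21.4%) and 3 of 13 uncalled members (23.1%). Of those 8, EXO1, FANCA and FANCD2 were lower in sh-SOX4, MSH3 and PMS2 were higher, and FANCC, MSH6 and XRCC2, whose fragments are not printed, were not called. Capitals mark the word or its reverse complement, each sequence reads 5′ to 3′ on the gene's strand, and fragments that reach past the start are kept to 30 bases.
EXO1 (chr1:241848197-241848226, plus strand): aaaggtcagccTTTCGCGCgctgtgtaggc
FANCD2 (chr3:10026424-10026453, plus strand): cgtcgggcctgGCGGGAAAgtcgaaaacta
FANCA (chr16:89816786-89816845, minus strand): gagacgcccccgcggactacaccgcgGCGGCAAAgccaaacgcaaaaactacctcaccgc
MSH3 (chr5:80654521-80654580, plus strand): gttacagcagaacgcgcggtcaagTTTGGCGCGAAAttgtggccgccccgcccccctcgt
PMS2 (chr7:6009116-6009175, minus strand): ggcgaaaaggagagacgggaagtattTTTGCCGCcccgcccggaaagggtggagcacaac

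In MSH3 a pair of words overlap on opposite strands. The genes with the largest fall and the largest rise, FANCL and RAD51C, held none of the E2F words, and the 100 bases before their starts are given for comparison.
FANCL (chr2:58241326-58241425, minus strand): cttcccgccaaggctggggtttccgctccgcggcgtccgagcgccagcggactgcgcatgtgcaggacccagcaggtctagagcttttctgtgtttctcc
RAD51C (chr17:58692473-58692572, plus strand): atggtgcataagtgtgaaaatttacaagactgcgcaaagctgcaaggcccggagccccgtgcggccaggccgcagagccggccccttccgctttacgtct

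Other words were searched in the same windows and both strands. The NF-Y box CCAAT was in 44.7% of member windows and 34.6% of all windows, the cell cycle words TTTGAA and TTCGAA in 13.2% of member windows and 16.4% of all windows, and the SOX words AACAAAG and AACAATG in 2.63% of member windows (BLM, 1 of 38) and 8.22% of all windows. Among members with a window, the CCAAT box was in 7 of 14 lower, 4 of 11 higher and 6 of 13 uncalled genes. A match or its absence says only which letters stand in these windows.

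Among the genes grouped under Fanconi, no member was called higher. The grouping places PALB2, RAD51C, BRIP1 and BRCA2, which are Fanconi genes too, with recombination, and of these PALB2 and RAD51C were higher, BRIP1 was lower and BRCA2 was not called. Of 9 measured, 6 were lower in sh-SOX4 and 3 were not called by edgeR, or 66.7% called. Beside them, 63.9% of all IDs at least as abundant as the least abundant member were called, 37.8% higher and 26.1% lower. Of the 9, 1 gene, FANCC, was higher at an unadjusted edgeR p under 0.05, and neither DESeq2 nor limma-voom called any of them higher. All 6 lower calls held in each alternative, and the group's median log2 fold change was -0.23. FANCL, the ubiquitin ligase subunit of the core complex (chromosome 2, 58159243 to 58241372 on GRCh38), had 15.9 and 16.6 CPM in sh-SOX4, against 28.3 and 29.02 CPM in sh-Scb. That is 56.8% of the control level, with a log2 fold change of -0.82 (SE 0.095, 95% interval -1.03 to -0.60, edgeR adjusted p 7.32e-05), the largest change among the members. The groups lay far apart and the libraries within a group close together. VRK2, on the opposite strand, shares exonic bases with FANCL (19.7% of FANCL's are shared with other genes) and was higher in sh-SOX4, with a log2 fold change of 0.45.

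FANCB, a scaffold of the module that holds FANCL, had 14.0 and 15.4 CPM in sh-SOX4, against 21.3 and 22.5 CPM in sh-Scb (log2 fold change -0.58, SE 0.106, edgeR adjusted p 0.00146). FANCI, one side of the clamp that the core complex modifies, had 387 and 388 CPM in sh-SOX4, against 524 and 525 CPM in sh-Scb (log2 fold change -0.44, SE 0.038, adjusted p 1.06e-05). Its libraries were nearly identical within each group. FANCD2, the other side of the clamp, fell less, with 166.5 and 167.7 CPM in sh-SOX4, against 195 and 192 CPM in sh-Scb, 86.4% of the control level. The core subunits FANCG (81.5% of control, adjusted p 0.00124) and FANCA (85.1%, adjusted p 0.00451) were lower as well, with no overlap between the groups. ZNF276, on the opposite strand, shares 23.6% of the exonic bases of FANCA and was higher in sh-SOX4, with a log2 fold change of 0.70.

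FANCC and FANCE, which link the core complex to the clamp, lay on the other side of 0 without being called. Of the 13 further Fanconi genes described below, 5 were called higher, FANCF among them, and 3 lower. FANCF had a log2 fold change of 0.33 (edgeR adjusted p 0.0400). Its call was not followed singly through the alternatives. FANCC had 26.8 and 27.2 CPM in sh-SOX4, against 23.0 in both sh-Scb libraries, a log2 difference of 0.23 (edgeR adjusted p 0.0606). With an offset for exonic length, that adjusted p became 0.0170. FANCE had a log2 fold change of 0.19 (95% interval -0.03 to 0.42). FANCM, the DNA-binding anchor of the complex, had a log2 fold change of -0.05 (95% interval -0.21 to 0.10).

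**Figure D2:**
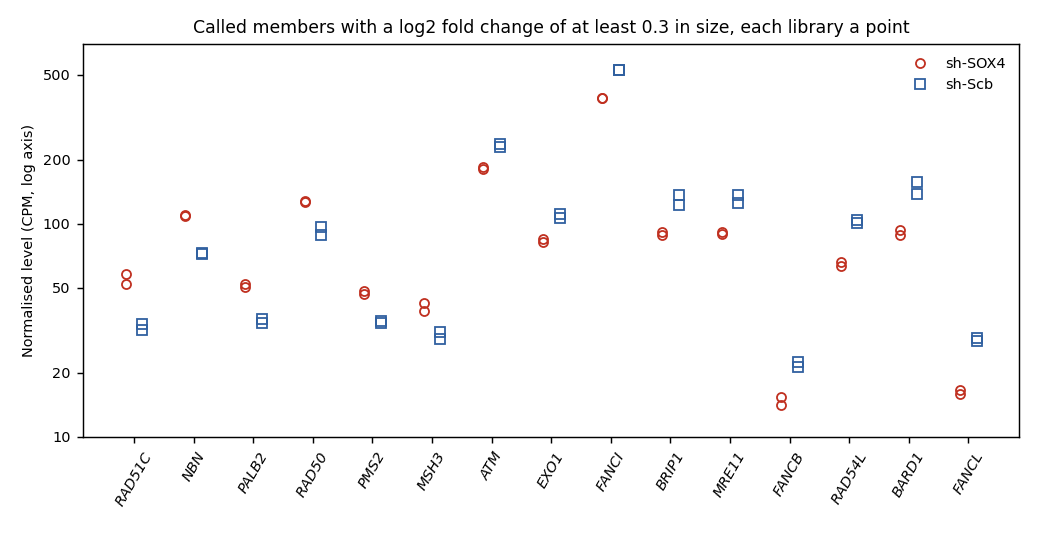
Normalised levels (CPM, log axis) in each library of the 15 called members that changed by 0.3 or more on the log2 scale, ordered by that change; red circles are sh-SOX4 and blue squares sh-Scb. In each gene both sh-SOX4 points lie on one side of both sh-Scb points, above them in 6 genes and below them in 9.

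Homologous recombination genes went both ways, with 3 of 11 higher, 4 lower and 4 not called. That is 63.6% called, beside 63.9% of all IDs at least as abundant as the least abundant member. The group's median log2 fold change of -0.06 became 0.02 with the length offset. RAD51C, which sits in both complexes of recombination paralogs (chromosome 17, 58692573 to 58735611), had 58.0 and 52.2 CPM in sh-SOX4, against 33.7 and 31.6 CPM in sh-Scb. It was 1.69-fold higher, the largest rise among the members (log2 fold change 0.75, SE 0.081, 95% interval 0.57 to 0.94, edgeR adjusted p 4.23e-05). PALB2, the bridge between BRCA1 and BRCA2, had 52.4 and 50.5 CPM in sh-SOX4, against 34.2 and 35.7 CPM in sh-Scb (log2 fold change 0.56, SE 0.073, adjusted p 0.000155). RAD51D, another paralog, was 1.19-fold higher (adjusted p 0.0033).

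The remaining paralogs were not called. XRCC2 and XRCC3 had log2 fold changes of 0.09 and 0.05, and RAD51B one of -0.22 (95% interval -0.47 to 0.04). KLC1, on the opposite strand, shares exons with XRCC3, 76.7% of whose exonic bases lie in it, and it had 132 and 123 CPM in sh-SOX4 and 137 and 146 CPM in sh-Scb, so the XRCC3 level is uncertain. BRCA2, a mediator of strand invasion and a breast cancer susceptibility gene, had 190.03 and 193 CPM in sh-SOX4, against 194 and 205 CPM in sh-Scb. Its log2 fold change of -0.06 had a 95% interval of -0.16 to 0.04, and the edgeR adjusted p was 0.331, which became 0.0189 with scaling to library totals.

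BARD1, the obligate partner of BRCA1 in a ubiquitin ligase (chromosome 2, 214725646 to 214809711), had 93.3 and 88.7 CPM in sh-SOX4, against 138 and 157 CPM in sh-Scb. It stood at 61.7% of the control level (log2 fold change -0.70, SE 0.067, edgeR adjusted p 2.69e-05), although the sh-Scb libraries differed from each other more than for most members. BRCA1 itself was lower by less, with 126.5 and 127.6 CPM in sh-SOX4, against 150.3 and 147 CPM in sh-Scb, 85.5% of control (adjusted p 0.00279). BRIP1, the helicase that binds BRCA1, had 88.8 and 91.9 CPM in sh-SOX4, against 123 and 137 CPM in sh-Scb (log2 fold change -0.52, SE 0.061, adjusted p 7.6e-05). RAD54L, a DNA-dependent motor protein of strand pairing, had 66.0 and 63.3 CPM in sh-SOX4, against 104 and 101 CPM in sh-Scb (log2 fold change -0.66, SE 0.054, adjusted p 6.47e-06). LRRC41 covers part of RAD54L on the opposite strand, where 25.1% of exonic bases are shared, and had a log2 fold change of -0.03.

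All 6 end resection genes were called, 3 higher and 3 lower. Beside them, 63.9% of all IDs at least as abundant as the least abundant member were called. The median log2 fold change of the 6 genes was 0.05, which became -0.05 with scaling to library totals. The split ran through the MRE11-RAD50-NBN complex, which binds and trims broken ends. NBN, its signalling subunit, had 109.2 and 109.8 CPM in sh-SOX4, against 72.6 and 72.4 CPM in sh-Scb (log2 fold change 0.59, SE 0.050, edgeR adjusted p 8.2e-06). RAD50, the ATPase subunit, had 128 and 127 CPM in sh-SOX4, against 88.8 and 96.4 CPM in sh-Scb (log2 fold change 0.46, SE 0.055, adjusted p 7.76e-05). MRE11, the nuclease, had 89.5 and 91.3 CPM in sh-SOX4, against 125 and 136 CPM in sh-Scb (log2 fold change -0.53, SE 0.055, adjusted p 3.21e-05). Other annotated genes cover 79.7% of the exonic bases of RAD50. TH2LCRR, which is among them, had 3 to 6 counts in a library. The overlapping gene AC116366.3, on the same strand as RAD50, had no ID in the deposited counts, so the RAD50 level is uncertain.

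RBBP8, known as CtIP, which switches on MRE11, had 97.6 and 96.2 CPM in sh-SOX4, against 82.6 and 75.1 CPM in sh-Scb (log2 fold change 0.30, edgeR adjusted p 0.00236). EXO1, the exonuclease of long-range resection that also serves mismatch repair and carries an E2F word in the sequence above, had 84.8 and 82.0 CPM in sh-SOX4, against 106 and 111 CPM in sh-Scb (log2 fold change -0.38, adjusted p 0.000215). BLM, the helicase deficient in Bloom syndrome, stood at 87.7% of control with an adjusted p of 0.0105. Without sh-SOX4 replicate 2 its adjusted p was 0.0880.

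Levels per exonic length put the subunits of a complex beside each other in every library. NBN stood at 1.524 and 1.502 times MRE11 in sh-SOX4, against 0.723 and 0.667 times in sh-Scb, so the order of these subunits was opposite in the groups. RAD50 stood at 1.13 and 1.09 times MRE11 in sh-SOX4, against 0.557 and 0.559 times in sh-Scb. The ratio of RAD50 to NBN, both higher, was 0.741 and 0.728 in sh-SOX4 and 0.771 and 0.839 in sh-Scb. These ratios are given as a description with no test, because the pairs were chosen with the values known.

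In the paralog complexes, RAD51C stood at 1.28 and 1.16 times RAD51D in sh-SOX4, against 0.872 and 0.852 times in sh-Scb. The order of these genes depends on the annotated length of RAD51D (11304 bases). In CPM, RAD51C averaged 55.1 against 84.2 for RAD51D in sh-SOX4, and 32.7 against 70.6 in sh-Scb. The ratio of RAD51C to RAD51B was 5.87 and 5.15 in sh-SOX4 and 2.86 and 2.76 in sh-Scb. BRCA1 stood at 0.8957 and 0.9497 times BARD1 in sh-SOX4, against 0.720 and 0.616 times in sh-Scb. PALB2 stood at 0.713 and 0.676 times BRCA2 in sh-SOX4, against 0.455 and 0.450 times in sh-Scb. FANCD2 was below FANCI throughout, at 0.3987 and 0.4002 times in sh-SOX4 and 0.345 and 0.339 times in sh-Scb.

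**Figure D3:**
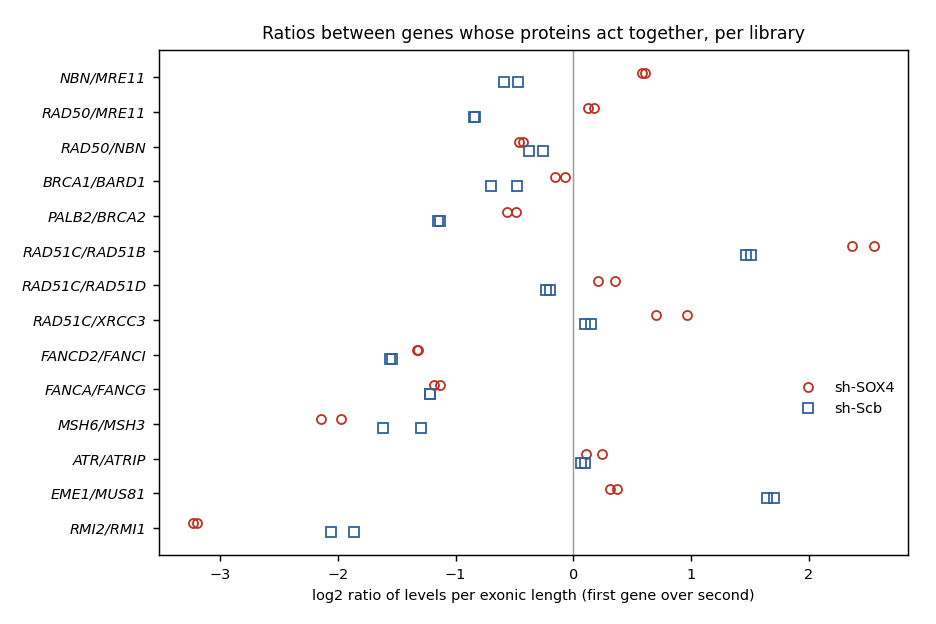
Log2 ratios of levels per exonic length between genes whose proteins act together (horizontal axis), with a point for each library; red circles are sh-SOX4 and blue squares sh-Scb. NBN and RAD50 against MRE11 lie right of 0 in sh-SOX4 and left of 0 in sh-Scb, while EME1 against MUS81 and RMI2 against RMI1 lie further left in sh-SOX4.

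Of the mismatch repair genes, PMS2 and MSH3 were higher in sh-SOX4 and MSH6 was not called. PMS2, the nuclease subunit of the MutL heterodimer, had 46.7 and 48.2 CPM in sh-SOX4, against 35.1 and 34.3 CPM in sh-Scb (log2 fold change 0.45, SE 0.074, edgeR adjusted p 0.000687). Its level is uncertain, because 10 annotated pseudogene copies could take or give reads, and these summed to 41.0 and 41.3 CPM in sh-SOX4 and 34.6 and 35.5 CPM in sh-Scb. MSH3, which recognises larger loops of unpaired DNA, had 42.5 and 38.9 CPM in sh-SOX4, against 30.9 and 28.8 CPM in sh-Scb (log2 fold change 0.45, SE 0.086, adjusted p 0.00198). MSH6, which recognises base mismatches, had 22.4 and 23.0 CPM in sh-SOX4, against 23.5 and 27.4 CPM in sh-Scb, with a 95% interval of -0.39 to 0.07 on the log2 scale. FBXO11, on the opposite strand, shares 16.2% of the exonic bases of MSH6 and had a log2 fold change of -0.20 (edgeR adjusted p 0.0622). Per exonic length MSH6 stood at 0.226 and 0.254 times MSH3 in sh-SOX4, against 0.326 and 0.408 times in sh-Scb. The size of this ratio depends on the annotated length of MSH6 (10993 bases).

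Among damage signalling genes 2 of 7 were higher, 2 lower and 3 not called. That is 57.1% called, beside 63.9% of all IDs at least as abundant as the least abundant member. The group's median log2 fold change of 0.06 became -0.04 with scaling to library totals. ATM, the apical kinase activated by broken chromosomes (chromosome 11, 108222484 to 108369102), had 180.5 and 184 CPM in sh-SOX4, against 229 and 237 CPM in sh-Scb (log2 fold change -0.36, SE 0.044, edgeR adjusted p 0.000114). ATR, its counterpart for stalled forks, had 84.7 and 78.5 CPM in sh-SOX4 and 80.3 and 76.4 CPM in sh-Scb, values that overlap, and its partner ATRIP had a log2 fold change of -0.04, with 27.9% of exonic bases shared with TREX1. TREX1 lies on the same strand as ATRIP and had a log2 fold change of 0.74. TP53BP1, which restrains resection at breaks, stood at 82.8% of control (adjusted p 0.00143). TUBGCP4, which lies on the opposite strand and shares 28.7% of the exonic bases of TP53BP1, had a log2 fold change of 0.26. MDC1, the adaptor that reads marked chromatin, had 15.8 CPM in both sh-SOX4 libraries, against 13.6 and 13.5 CPM in sh-Scb, and was not called (adjusted p 0.133).

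The checkpoint kinases downstream were slightly higher, CHEK1 by 0.18 (edgeR adjusted p 0.0222) and CHEK2 by 0.20 (adjusted p 0.0321) on the log2 scale. Neither call held in every setting: that of CHEK1 had an adjusted p of 0.143 without sh-SOX4 replicate 1 and 0.0890 without sh-Scb replicate 2, and that of CHEK2 0.228 without sh-SOX4 replicate 2 and 0.137 without sh-Scb replicate 2. With scaling to library totals both were lost, at 0.26 and 0.239. That of CHEK2 was also lost with no filter (0.0592), DESeq2 (0.0634) and the length offset (0.0604).

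Of the single-strand break and excision repair genes, PARP1 and ERCC1 were slightly higher, and XRCC1 and XPA were not called. PARP1 had 431 and 443 CPM in sh-SOX4, against 409 and 384 CPM in sh-Scb, a log2 fold change of 0.14 (edgeR adjusted p 0.0279). Without sh-Scb replicate 2 it was 0.09 with an adjusted p of 0.141, and the adjusted p was 0.0544 when sh-SOX4 replicate 1 was left out and 0.190 when sh-SOX4 replicate 2 was. ERCC1, a subunit of the nucleotide excision nuclease, had a log2 fold change of 0.21 (adjusted p 0.0415), and its adjusted p was 0.0715 when sh-SOX4 replicate 1 was left out, 0.148 when replicate 2 of that group was, and 0.227 when sh-Scb replicate 1 was. With scaling to library totals PARP1 had a log2 fold change of 0.04 (adjusted p 0.48) and ERCC1 one of 0.11 (0.247), and with no filter their adjusted p-values were 0.0689 and 0.0584. DESeq2 gave ERCC1 an adjusted p of 0.0743. Of its exonic bases 28.6% are shared with POLR1G on the opposite strand, which had 20.5 and 22.7 CPM in sh-SOX4, against 6.35 and 3.39 CPM in sh-Scb. XRCC1, the scaffold of strand break repair, had 40.7 CPM in both sh-SOX4 libraries, against 41.0 and 41.5 CPM in sh-Scb, and its 95% interval of -0.18 to 0.14 limits a change in either direction. XPA, a damage verification protein, had a log2 fold change of 0.19 (95% interval -0.06 to 0.44).

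Beyond the members, 83 further repair genes were read by the same pathways, all of them tested. Of these 26 were higher and 25 lower in sh-SOX4, or 61.4% called, with a median log2 fold change of -0.005. Beside them, 44.1% of all tested IDs were called, and 63.9% of those at least as abundant as the least abundant member. By pathway, between 50% and 75% of the further genes were called. With scaling to library totals 16 were higher and 31 lower. The further Fanconi genes had 5 of 13 higher and 3 lower, with a median of 0.15. REV3L, the catalytic subunit of translesion polymerase zeta, was 144 ± 3.03 CPM in sh-SOX4 and 103 ± 3.94 CPM in sh-Scb (SD, n = 2 each), while MAD2L2, an accessory subunit of the same polymerase, was 55.1 ± 2.70 CPM in sh-SOX4 and 80.2 ± 0.203 CPM in sh-Scb. REV1, their scaffold, fell by 0.36 on the log2 scale. CENPS, part of the histone-fold pair that binds FANCM, rose by 0.38, with 64.7% of exonic bases shared.

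In the recombination group, where 5 of 17 further genes were higher and 6 lower, the subunits of the junction-cutting nuclease MUS81-EME1 parted. EME1 was 46.4 ± 0.837 CPM in sh-SOX4 and 92.0 ± 5.11 CPM in sh-Scb (SD, n = 2 each; log2 fold change -0.99, edgeR adjusted p 1.15e-06), and MUS81 rose by 0.35 (adjusted p 0.0013). EME1 stood at 1.24 and 1.30 times MUS81 in sh-SOX4, against 3.12 and 3.26 times in sh-Scb. RAD51AP1, a DNA-binding protein that promotes strand pairing, was 71.4 ± 0.623 CPM in sh-SOX4 and 123 ± 2.39 CPM in sh-Scb. BRCC3, the deubiquitinase of the BRCA1-A complex, was 83.2 ± 2.99 CPM in sh-SOX4 and 48.1 ± 0.634 CPM in sh-Scb.

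Around BLM, RMI2 showed the largest fall of any repair gene read here, with 7.001 ± 0.3995 CPM in sh-SOX4 and 19.3 ± 1.17 CPM in sh-Scb (SD, n = 2 each; log2 fold change -1.46, edgeR adjusted p 8.2e-06). RMI1, which forms the same dissolving complex, averaged 62.7 CPM in sh-SOX4 and 72.3 CPM in sh-Scb, so that RMI2 stood at 0.107 and 0.109 times RMI1 in sh-SOX4, against 0.276 and 0.240 times in sh-Scb. Of the 8 further genes in that group 1 was higher, WRN, and 5 were lower, DNA2 among them at -0.27 on the log2 scale. The WRN call (adjusted p 0.0267) was lost without sh-SOX4 replicate 1 (0.149), sh-SOX4 replicate 2 (0.0574) and sh-Scb replicate 2 (0.129). It was also lost with scaling to library totals, where the log2 fold change was 0.07 (adjusted p 0.3), with DESeq2 (0.0694) and with no filter (0.053).

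RNF168, the ligase that marks chromatin at breaks for TP53BP1, was 137 ± 0.465 CPM in sh-SOX4 and 270.5 ± 2.90 CPM in sh-Scb (SD, n = 2 each; log2 fold change -0.98, edgeR adjusted p 1.36e-07). Within the ring-shaped clamp that activates ATR, RAD9A fell by 0.59 and RAD1 rose by 0.24 on the log2 scale, and TIPIN, a fork protection factor, rose by 0.40. In all, 3 of 12 further signalling genes were higher and 4 lower. Of 4 further mismatch repair genes PMS1 rose by 0.36, and MSH5, a meiotic MutS gene with 47.3% of exonic bases shared, fell by 1.17. Of 29 further excision and strand break genes 11 were higher and 6 lower. APEX1, the abasic site nuclease, and TDG, a thymine glycosylase, each rose by 0.74, while CETN2, a subunit of the XPC damage recognition complex, fell by 0.78 and DDB2, a damage sensor that is also a p53 target, fell by 0.63.

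**Figure D4:**
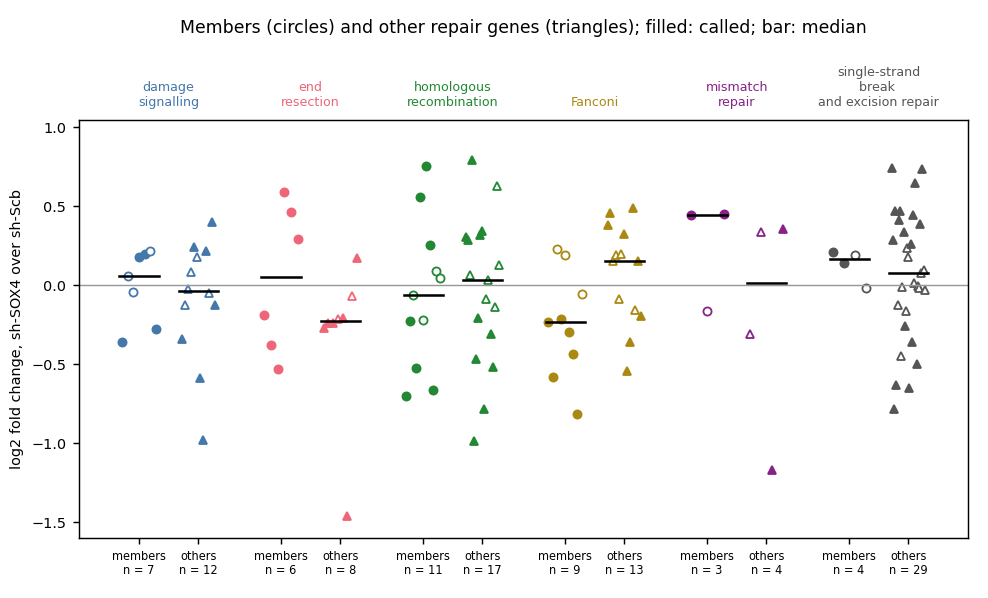
Log2 fold changes (sh-SOX4 over sh-Scb, vertical axis) of the members (circles) and the further repair genes (triangles, marked others) in each pathway; filled symbols were called, and bars are medians. The Fanconi members have a median of -0.23 and the further Fanconi genes one of 0.15, and the lowest point is RMI2 at -1.46.

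Cell cycle genes are given because repair genes follow the cycle. Beside them, 63.9% of all IDs at least as abundant as the least abundant member were called. Of 15 S phase genes 5 were higher and 3 lower in sh-SOX4 (53.3% called), with a median log2 fold change of 0.01. Of 15 G2/M genes 5 were higher, CDC20 and CCNB1 among them, and 8 lower, MKI67 and CDK1 among them. That is 86.7% called, with a median of -0.14. Their part in the repair gene results was not tested.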

How the data were processed

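The authors deposited whole-number read counts per Ensembl gene ID, with a column for each library and no normalization. HISAT2 2.2.0, StringTie and hg38 are named, per the submitters' processing notes. Their roles, the annotation, filters and the use of strand are not stated in those notes or the labels, so reads of overlapping genes on opposite strands may be mixed. Control columns are named NC in place of sh-Scb, and replicate numbers match the labels. From these counts, edgeR 4.0.16 in R 4.3.3 applied filterByExpr (minimum count 10, minimum total 15), TMM scaling and a robust quasi-likelihood fit by group, with 2 residual degrees of freedom and Benjamini-Hochberg adjustment at 0.05. CPM values are TMM-scaled. The SE is the log2 fold change divided by the square root of F. Symbols were found for 56105 IDs. Gene coordinates, exonic lengths and overlaps are from GENCODE release 29 (GRCh38).

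The fit was tested on simulated data. The members and lists were chosen with earlier results of these data known. Values per library are given for called members that changed by 0.3 or more (log2) and for others a group turns on. Of further repair genes, the 2 higher and 2 lower calls with the smallest adjusted p in each group are named, and other named genes were picked after their values were seen. Alternatives were median-ratio factors, library totals, no filter, each library left out, a replicate block, DESeq2 1.42.0, limma-voom (limma 3.58.1) and an offset for exonic length. Counting without members that share 25% or more of exonic bases was added after seeing the data. Replicates differed by more than sampling noise, with a median chi-square per gene of 1.49 in sh-SOX4 and 1.56 in sh-Scb, against 0.455 for sampling alone. Figures used matplotlib 3.10.9.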

Additional observations from a re-analysis of the deposited data

How the results depend on the processing

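Of the 27 called members, 22 stayed on their side of the threshold in each of 11 alternatives, and CHEK1, CHEK2, BLM, PARP1 and ERCC1 did not. Of 13 uncalled members 3 passed somewhere, BRCA2 and RAD51B (adjusted p 0.0443) with library totals and FANCC with the length offset. Members called higher ranged from 8 with library totals to 12, and members called lower from 14 to 17; among the 34 members under 25% shared exonic bases, 10 were higher and 13 lower. Leaving out a library gave 9 to 11 higher and 14 to 15 lower. Damage signalling genes called higher became 0 with library totals and 1 with no filter, DESeq2 or the length offset, and 0 to 2 with a library left out. Excision and strand break genes called higher became 0 with library totals or no filter and 1 with DESeq2 or the replicate block, and 0 to 1 with a library left out. Fanconi genes called higher became 1 with the length offset. Further repair genes called higher became 16 with library totals, so calls of small changes depend on the scaling. The median log2 fold changes of the end resection and damage signalling members, both near 0, changed sign with library totals. The members' median of -0.028 became -0.127 with library totals and 0.0083 with the length offset, and ranged from -0.036 to -0.00099 with a library left out. SOX4 ranged from -0.59 to -0.46. With the replicate block, 11 members were higher and 15 lower, and PARP1 had an edgeR adjusted p of 0.0504. The differences between replicates 1 and 2 were hardly correlated between the groups (correlation -0.022). Whether same-numbered libraries share a culture or a day is not stated in the labels, and this correlation cannot decide it. Of the further genes named for their smallest adjusted p, RAD1 (edgeR adjusted p 0.0511) and WRN were lost with library totals. WRN was also lost with DESeq2, with no filter and with each of 3 libraries left out. The causes were not tested. The 5 members that lost a call had changes of 0.14 to 0.21 in size on the log2 scale, and 2 libraries per group limit what smaller changes can be shown.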
